A study of Mus musculus with 4 samples.

Results

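The genes described here are the NF-κB subunits Rela, Rel, Relb, Nfkb1 and Nfkb2 and the IκB proteins Nfkbia, Nfkbib, Nfkbie, Nfkbiz and Nfkbid, chosen by symbol. All 10 were found among the 18560 genes of the expression table. RNA-seq had been made from 2 Setd2 knockout libraries, numbered 9 and 12, and 2 wild type (WT) libraries, numbered 1 and 6. The cells were C57BL/6 mouse spleen CD4+ T cells, naive at the start and activated by antibodies against CD3 and CD28 (Th0 cells, activated helper cells not steered to an effector type). The knockout genotype is labelled Setd2-CD4 cre, a Cre recombinase under Cd4 control that acts on Setd2, the enzyme that trimethylates lysine 36 of histone H3. This Cre is active in T cells from their CD4 CD8 double-positive stage in the thymus, so it also deletes in CD8 T cells. The WT label does not say which alleles those mice carried. Sources disagree on the time of stimulation: titles carry the number 48, the series' design text gives 2 days and the treatment field 3 days. No label says whether replicates came from separate animals. The p-values of single genes therefore rest on a spread between these libraries, pooled in part over genes, which may be technical.

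NF-κB factors are dimers of proteins that share a Rel homology domain, which binds DNA. RelA, c-Rel and RelB carry activation domains, while the products of Nfkb1 and Nfkb2 are precursors (p105 and p100) that are cut to the DNA-binding subunits p50 and p52. IκB proteins bind the dimers through ankyrin repeats. The products of Nfkbia, Nfkbib and Nfkbie hold them in the cytoplasm until the IκB kinase (IKK) marks the inhibitor for degradation, whereas those of Nfkbiz and Nfkbid act in the nucleus on chosen promoters. In T cells the T cell receptor and CD28 start the pathway through protein kinase C theta and the protease MALT1, and several of the 10 genes are themselves NF-κB targets.

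Libraries held between 17284613 and 20418766 counts, and the 10 genes between 277 and 8309 counts per library. Setd2 itself stood at 127 and 113 CPM (counts scaled to library size, with TMM factors) in KO replicates 9 and 12, against 157 and 174 CPM in WT replicates 1 and 6, and a gene-level count does not resolve the deleted exons. The labelled cell type had all 8 of its fixed markers (Cd4, Cd3e, Cd3d, Cd3g, Cd2, Cd5, Cd28 and Lck). They summed to 2641 and 2797 CPM in KO libraries, against 3240 and 3328 CPM in WT libraries, with 6 of the 8 lower in both KO libraries (24.3% of all genes were). B cell markers, from another spleen cell type that uses NF-κB, summed to 277 and 483 CPM in KO replicates 9 and 12, against 364 and 235 CPM in WT replicates 1 and 6, and none of the 7 was at 0. The CD8 T cell marker Cd8b1 was present too, at 238 and 188 CPM in KO libraries, against 141 and 183 CPM in WT libraries. The groups overlapped for the CD8 T cell marker Cd8a, at 194 and 136 CPM in KO libraries, against 119 and 147 CPM in WT libraries. Cd4 stood at 404 and 445 CPM in KO libraries, against 464 and 575 CPM in WT libraries. In bulk RNA, fewer cells of a type and less RNA per cell cannot be told apart.

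Promoter windows from RefSeq (GRCm38.p6, 250 bases before to 50 after an annotated start) were at hand for 7 of the 10 genes. There were 11 windows, as Nfkb2 and Nfkbid had 3 each. Relb, Nfkbiz and Nfkb1 are named only. The windows below are those of Rel and Nfkbib, which had the largest differences between groups among the 7, and of Nfkb2 and Nfkbia, textbook NF-κB targets. Capitals mark matches by letters alone to the degenerate kappa-B consensus, the sequence pattern of NF-κB sites, on either strand.
Rel (chr11:23770920-23771219, minus strand): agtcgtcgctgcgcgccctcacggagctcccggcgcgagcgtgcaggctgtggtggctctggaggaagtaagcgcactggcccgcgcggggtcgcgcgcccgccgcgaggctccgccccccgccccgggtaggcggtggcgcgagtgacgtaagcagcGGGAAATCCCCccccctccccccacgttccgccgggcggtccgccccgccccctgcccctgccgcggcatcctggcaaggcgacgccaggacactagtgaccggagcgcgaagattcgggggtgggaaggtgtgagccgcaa
Nfkb2 (chr19:46304487-46304786, plus strand): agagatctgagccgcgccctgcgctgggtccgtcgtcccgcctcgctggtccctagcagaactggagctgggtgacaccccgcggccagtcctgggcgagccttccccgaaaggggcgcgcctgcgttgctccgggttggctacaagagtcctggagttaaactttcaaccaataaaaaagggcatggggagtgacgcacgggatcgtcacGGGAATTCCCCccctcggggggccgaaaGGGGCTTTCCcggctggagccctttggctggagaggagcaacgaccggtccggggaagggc
Nfkbia (chr12:55492598-55492897, minus strand): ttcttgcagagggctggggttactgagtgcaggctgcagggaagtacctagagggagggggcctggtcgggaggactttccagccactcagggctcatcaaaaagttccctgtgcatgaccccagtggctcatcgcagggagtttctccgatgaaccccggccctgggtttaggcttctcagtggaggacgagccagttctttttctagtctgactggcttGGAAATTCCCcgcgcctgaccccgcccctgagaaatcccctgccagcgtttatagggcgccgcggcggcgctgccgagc
Nfkbib (chr7:28766595-28766894, minus strand): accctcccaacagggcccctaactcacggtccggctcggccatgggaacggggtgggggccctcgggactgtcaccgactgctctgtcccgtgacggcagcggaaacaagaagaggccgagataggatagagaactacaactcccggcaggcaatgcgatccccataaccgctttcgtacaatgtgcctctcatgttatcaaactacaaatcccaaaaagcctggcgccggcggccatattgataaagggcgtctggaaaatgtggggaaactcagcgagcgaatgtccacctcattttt
The consensus matched 7 of the 11 windows, from 5 of the 7 genes (Rel, Nfkb2, Nfkbia, Nfkbie and Nfkbid), against 4.51% of all 32851 windows of the same length. The other 2 Nfkb2 windows overlap and share a matching site, which is counted in both. In Rel the matches began 92 and 91 bases before the window's own start site and the one in Nfkbia began 29 bases before it. Those of the Nfkb2 window, which lies inside the annotated gene, began 39, 38 and 11 bases before its start site, and the outermost one in each of Rel and Nfkb2 matched on both strands. The Nfkbib window held no match. The 11 windows were 56.3% to 75.0% G and C, against a median of 52.7% over all windows, and a match describes letters, not a bound site.

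No NF-κB or IκB gene passed the test between KO and WT cells. Of the 10 genes tested, edgeR's quasi-likelihood test called 0 at an adjusted p under 0.05 (0.0078% of all 12816 genes tested were called, the 1 being Agpat4, an acyltransferase gene outside the pathway). At an unadjusted p under 0.05 there were 3, with Nfkbib higher (6.23% of all genes passed in that direction) and Relb and Nfkbiz lower (5.73%). DESeq2 called 0 of the 10, against 1.45% of all genes (0.694% in the higher and 0.757% in the lower direction). By limma-voom 0 of the 10 passed, against 0.0078% of all genes. The adjusted edgeR p of the 10 ran from 0.413 to 0.949. Both KO libraries lay above both WT libraries for 2 genes, Nfkb1 and Nfkbib (25.4% of all genes did), and below them for 3, Rel, Relb and Nfkbiz (24.3%). The groups thus did not overlap for 5 of the 10 genes, against 49.7% of all genes, and overlapped for the other 5. The 10 had a median log2 fold change of -0.012, against -0.0024 over all genes tested.

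**Figure D1:**
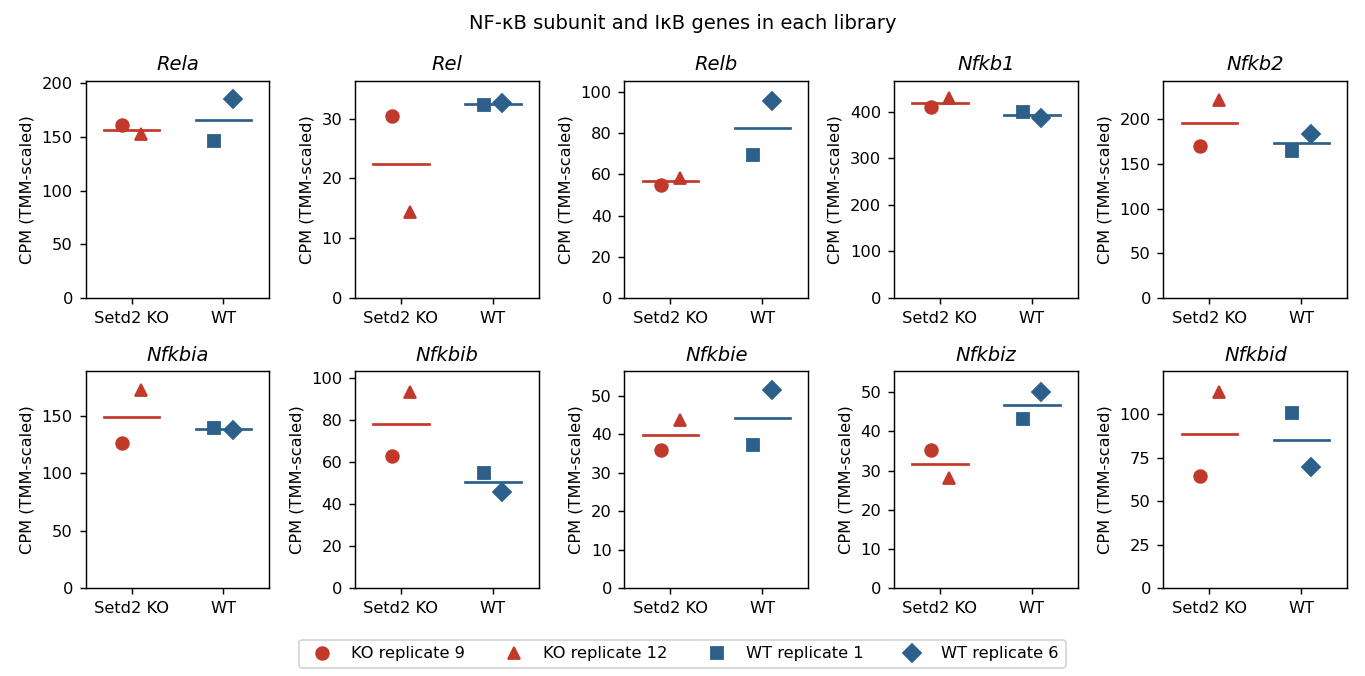
Level of each NF-κB and IκB gene in TMM-scaled CPM (linear axes from 0), with each library as a point and the group mean as a line. Rel is lowest in KO replicate 12 (14.3 CPM) and only just under both WT libraries in KO replicate 9 (30.5 CPM). Both KO libraries also sit under both WT libraries for Relb and Nfkbiz, and above them for Nfkb1 and Nfkbib. The groups do not overlap for 49.7% of all genes.

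Among the subunits with an activation domain, Relb and Rel were lower in both KO libraries (24.3% of all genes were) and Rela was not. Relb (gene 19698, chr7:19606217-19629438), the subunit that pairs with p52 in the noncanonical pathway, stood at 55.0 and 58.1 CPM in KO replicates 9 and 12, against 69.6 and 95.4 CPM in WT replicates 1 and 6. The KO libraries were close to each other and WT replicate 6 was the highest. Its log2 fold change (KO over WT) was -0.55 (SE 0.23), with a 95% interval of -1.08 to -0.01, an unadjusted edgeR p of 0.0481 (adjusted 0.416). Without WT replicate 6 it was -0.30.

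Rel (gene 19696, chr11:23736847-23770969), which encodes c-Rel, a subunit used mostly by lymphocytes, stood at 30.5 and 14.3 CPM in KO replicates 9 and 12, against 32.4 and 32.7 CPM in WT replicates 1 and 6. The WT libraries differed 1.01-fold and the KO libraries 2.13-fold, the widest gap between replicates among the 10 genes. The log2 fold change was -0.54 (SE 0.34, edgeR adjusted p 0.496). It was -1.19 without KO replicate 9 (adjusted p 0.19) and -0.10 without KO replicate 12, so the size of the difference rested on KO replicate 12. Its window above held matches to the kappa-B consensus.

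Rela (gene 19697, chr19:5637442-5648134) encodes p65, the main activating subunit of the canonical pathway. It stood at 161 and 152 CPM in KO replicates 9 and 12, against 146 and 185 CPM in WT replicates 1 and 6. The KO values lay between the WT values. The log2 fold change was -0.08 (SE 0.22, edgeR adjusted p 0.888), with a 95% interval of 0.66-fold to 1.35-fold.

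Of the precursor genes, Nfkb1 was slightly higher in both KO libraries (25.4% of all genes were higher) and Nfkb2 overlapped between groups. Nfkb1 (gene 18033, chr3:135584655-135691969) stood at 409 and 429 CPM in KO replicates 9 and 12, against 399.6 and 386 CPM in WT replicates 1 and 6. Both KO libraries were above both WT libraries, by a small margin, with a log2 fold change of 0.09 (SE 0.20, edgeR adjusted p 0.846). Its 95% interval, 0.78-fold to 1.47-fold, was the narrowest of the 10. Nfkb2 (gene 18034, chr19:46300994-46312400) stood at 169 and 222 CPM in KO replicates 9 and 12, against 164 and 183 CPM in WT replicates 1 and 6, with KO replicate 9 between the WT libraries. The log2 fold change was 0.17 (SE 0.23), and without KO replicate 12 it turned to -0.037. Nfkb2 shares 299 exon bases with Psd on the opposite strand, and Psd stood at 15.8 CPM or less in each library. It also shares 531 exon bases with the noncoding RNA gene AC114539.1 on the opposite strand, which is absent from the expression data, so its level is unknown. The sources used here do not say whether counting used strand.

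Of the cytoplasmic inhibitors, Nfkbib was higher in both KO libraries (25.4% of all genes were) and Nfkbia and Nfkbie were not. Nfkbib (gene 18036, chr7:28758251-28766644) encodes IκBβ, which is resynthesised more slowly than IκBα after activation. It stood at 62.8 and 93.0 CPM in KO replicates 9 and 12, against 54.8 and 45.8 CPM in WT replicates 1 and 6. KO replicate 12 was the highest library and WT replicate 6 the lowest. The log2 fold change was 0.63 (SE 0.26, 1.55-fold, 95% interval 1.03-fold to 2.34-fold), with an unadjusted edgeR p of 0.0402 (adjusted 0.413). It was 0.32 without KO replicate 12. Over all genes, log2 fold changes were lower in longer genes, with a median of 0.38 for an effective length under 1000 bases, 0.22 between 1000 and 2000 bases and -0.51 over 8000 bases. Nfkbib was the shortest of the 10, with an effective length of 1371 bases, and with the length trend removed from each library its log2 fold change was 0.37 (adjusted p 0.481). It shares 314 exon bases with Ccer2 and 42 with Sirt2 on the opposite strand. Ccer2 had no count in 3 of the 4 libraries, and Sirt2 stood at 89.0 and 109 CPM in KO replicates 9 and 12, against 100.4 and 88.0 CPM in WT replicates 1 and 6.

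Nfkbia (gene 18035, chr12:55489409-55492647) encodes IκBα, the NF-κB target that shuts the canonical response off. It stood at 127 and 172 CPM in KO replicates 9 and 12, against 139.9 and 138 CPM in WT replicates 1 and 6. The KO libraries lay on either side of the WT pair, which differed 1.01-fold, and the log2 fold change was 0.10 (SE 0.23, edgeR adjusted p 0.854). It turned to -0.14 without KO replicate 12 and to -0.11 with the length trend removed. Nfkbie (gene 18037, chr17:45555700-45563169), which encodes IκBε, stood at 36.0 and 43.7 CPM in KO replicates 9 and 12, against 37.2 and 51.3 CPM in WT replicates 1 and 6. The groups overlapped, with a log2 fold change of -0.15 (SE 0.25) that turned to 0.10 without WT replicate 6.

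Of the nuclear IκB genes, Nfkbiz was lower in both KO libraries (24.3% of all genes were), and the groups overlapped for Nfkbid. Nfkbiz (gene 80859, chr16:55811375-55838954) encodes IκBζ, a coactivator known in mice for its part in Th17 cytokine transcription. It stood at 35.3 and 28.2 CPM in KO replicates 9 and 12, against 43.2 and 50.1 CPM in WT replicates 1 and 6, with every KO value below every WT value. The log2 fold change was -0.55 (SE 0.23, 95% interval -1.08 to -0.03), with an unadjusted edgeR p of 0.0412 (adjusted 0.413). Over the 15 alternative settings it stayed negative, from -0.73 to -0.40. Nfkbid (gene 243910, chr7:30421731-30428749) encodes IκBNS, known in mice for supporting Foxp3 and IL-2 expression. It stood at 64.5 and 113 CPM in KO replicates 9 and 12, against 101 and 70.0 CPM in WT replicates 1 and 6. The replicates of each group were farther apart than the group means, and the log2 fold change of 0.06 (SE 0.32) changed sign under 7 of the 15 settings.

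**Figure D2:**
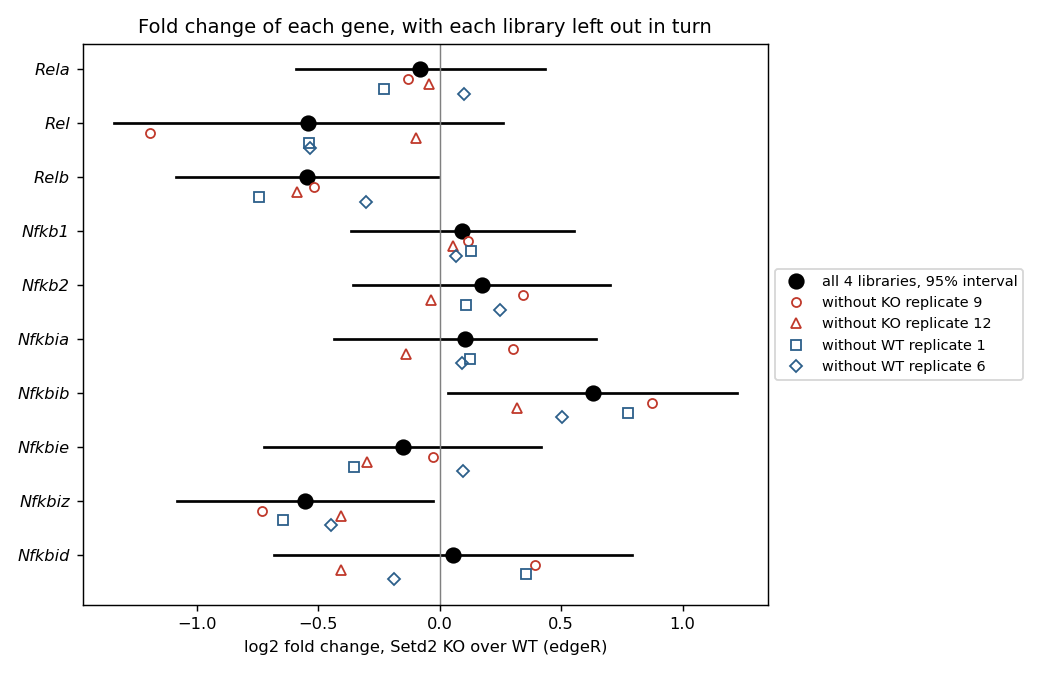
Log2 fold change of each gene, KO over WT, as a black point with its 95% interval, and open symbols for the fit without each library in turn. Rel runs from -1.19 without KO replicate 9 to -0.10 without KO replicate 12. Rel, Relb, Nfkbiz, Nfkbib and Nfkb1 keep their sign in every fit shown.

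The libraries did not differ evenly over the 10 genes. KO replicate 12 was the highest library for 5 genes (Nfkb1, Nfkb2, Nfkbia, Nfkbib and Nfkbid) and the lowest for 2 (Rel and Nfkbiz). WT replicate 6 was the highest for the other 5 and the lowest for 2 (Nfkb1 and Nfkbib). KO replicate 9 and WT replicate 1 were the highest for none. The ratio of the higher to the lower replicate had a median of 1.28 in KO and 1.18 in WT cells, and it was larger in KO cells for 7 of the 10 genes. KO replicate 12 was also the library with the highest summed B cell markers (483 CPM), and the part of that in these levels was not tested.

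Levels between genes were compared as the deposited FPKM, which is scaled by length. Nfkb1 was the most abundant of the 10, with 103 ± 0.69 FPKM in KO and 101 ± 0.56 FPKM in WT cells (SD, n = 2 each), above 94.1% of all genes tested. Nfkbia followed (92.0 ± 16.6 FPKM in KO and 90.8 ± 2.62 FPKM in WT cells, SD, n = 2 each), with values that overlapped those of Nfkb1. Rela, Nfkb2, Nfkbib, Nfkbid and Relb came next, clear of Nfkbia, with means over the 4 libraries between 63.6 and 32.0 FPKM, and each overlapped its neighbour in that order. Nfkbie (17.2 FPKM) stood apart from Relb above it and from Nfkbiz below it. Nfkbiz (10.8 FPKM) and Rel (10.7 FPKM) overlapped and were the least abundant, 9.57-fold under Nfkb1 in the case of Rel.

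The make-up of the subunit pool was read within each library, where scaling between libraries cancels. Relb made up 9.85% and 9.82% of the summed subunit FPKM in KO replicates 9 and 12, against 12.6% and 15.3% in WT replicates 1 and 6. The KO libraries were almost equal and below both WT libraries, with a mean KO minus WT difference of -4.13 percentage points. Nfkb1 made up 40.3% and 39.9% in KO libraries, against 39.5% and 34.2% in WT libraries, and Nfkb2 20.7% and 25.8% in KO, against 20.3% and 20.4% in WT. By FPKM, both precursor shares were thus higher in both KO libraries. With counts not scaled by length, the groups overlapped for both. The Nfkb1 level itself was 102.7 and 103.6 FPKM in KO replicates 9 and 12, against 100.6 and 101.4 FPKM in WT replicates 1 and 6. The summed subunit FPKM was 254.9 and 259.6 in KO, against 254.4 and 296.5 in WT. Rel made up 4.59% and 2.01% in KO replicates 9 and 12, against 4.90% and 4.48% in WT replicates 1 and 6, and Rela 24.6% and 22.4% in KO, against 22.6% and 25.6% in WT. The groups overlapped for these last shares. An exact permutation test over the 4 libraries, two-sided, gave p = 0.333 for the Relb, Nfkb1 and Nfkb2 shares, the smallest p that 2 against 2 allows, and p = 0.667 for the Rel and Rela shares. Adjusted over the 6 quantities compared, each was 0.667. The summed FPKM of Nfkbia, Nfkbib and Nfkbie over that of the 5 subunits was 0.551 and 0.713 in KO replicates 9 and 12, against 0.567 and 0.506 in WT replicates 1 and 6, so the groups overlapped.

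**Figure D3:**
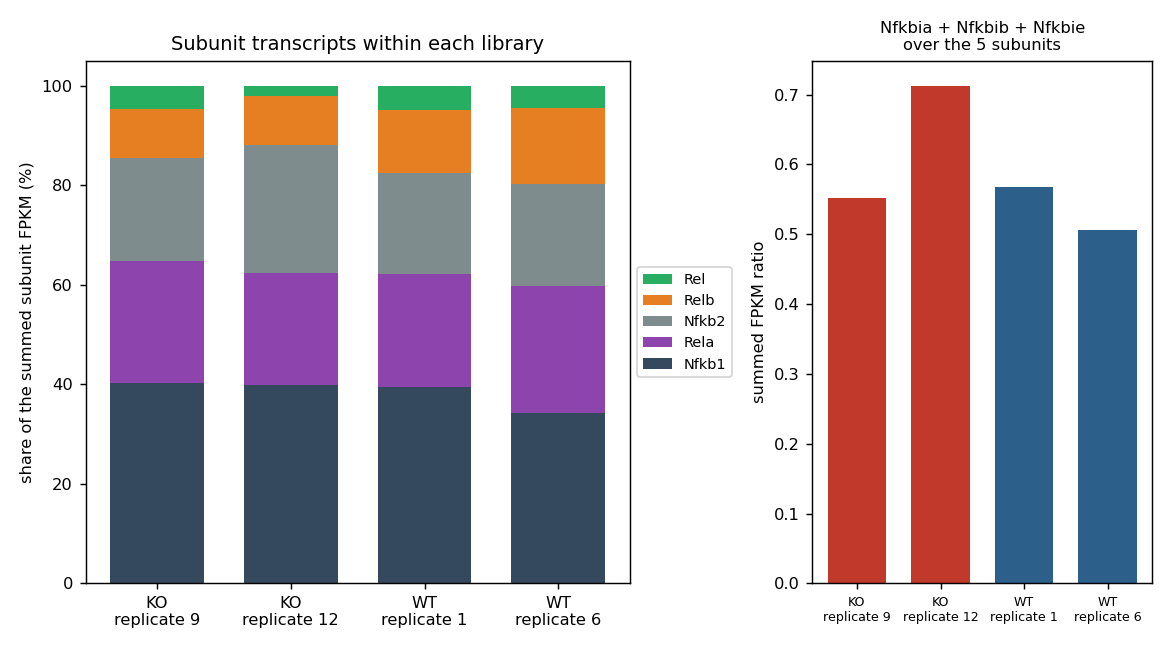
Left, the share of each subunit gene in the summed subunit FPKM of each library (percent). Right, the summed FPKM of the 3 cytoplasmic inhibitor genes over that of the 5 subunit genes; Relb is near 10% in both KO libraries and above 12% in both WT libraries, and the ratio is highest in KO replicate 12 (0.713).

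The rest of the pathway was read from 5 lists with 105 genes (5 of them in more than one list). Between the receptor and IKK, 24 genes were tested and edgeR called 0. At an unadjusted p there were 0 higher (6.23% of all genes) and 2 lower (5.73%), and DESeq2 called 1 lower (0.757%). The list's median log2 fold change was -0.034, and 0.017 without KO replicate 12. Malt1, which encodes that protease, stood at 181 and 187 CPM in KO replicates 9 and 12, against 349 and 298 CPM in WT replicates 1 and 6 (log2 -0.81, SE 0.21, edgeR adjusted p 0.349), and was the gene that DESeq2 called. Prkcq, which encodes protein kinase C theta, stood at 212 and 167 CPM in KO cells, against 279 and 305 CPM in WT cells (log2 -0.63). Both genes were lower in every KO library than in every WT library, as was the kinase gene Map3k3 (log2 -0.48, edgeR adjusted p 0.427). Of all genes, 24.3% were lower in this way. The most abundant gene of the list was Ube2v1, a ubiquitin-conjugating enzyme variant (log2 0.31, SE 0.22).

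Genes of the IKK complex and the noncanonical arm were mostly lower. Of 9 tested, 8 had a log2 fold change under 0, around a median of -0.25. Over all 12816 genes tested, 6388 had one above 0. Of the 9, 7 were lower in both KO libraries (24.3% of all genes were). For the IKK complex genes Chuk, Ikbkb and Ikbkg it was -0.22, -0.25 and -0.23 (unadjusted edgeR p 0.382, 0.251 and 0.296). The groups overlapped for Chuk. edgeR called 0 of the 9, 3 were lower at an unadjusted p (5.73% of all genes) and DESeq2 called 1 lower (0.757%). That gene was Ikbke, which encodes the IKK-related kinase IKKε, at 55.4 and 56.9 CPM in KO replicates 9 and 12, against 92.1 and 124 CPM in WT replicates 1 and 6 (log2 -0.94, SE 0.23, edgeR adjusted p 0.327). Traf3, the adaptor that directs NIK to degradation, stood at 80.3 and 76.9 CPM in KO cells, against 116 and 112 CPM in WT cells (log2 -0.54). Map3k14, which encodes NIK, the kinase that starts p100 processing, stood at 54.0 and 58.4 CPM in KO cells, against 70.7 and 93.6 CPM in WT cells (log2 -0.55). Birc2, which encodes cIAP1, had a log2 fold change of -0.30, and Birc3 (cIAP2), the most abundant of the list, one of 0.01 that turned negative under 7 of the 15 settings. The genes of this list were longer than the NF-κB and IκB genes, with a median effective length of 3726 against 2497 bases. With the length trend removed the list's median was -0.14 with 7 of 9 negative, and the log2 fold change of Traf3 was -0.15; without KO replicate 9 the list's median was -0.41.

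Negative regulators showed no common direction, with 10 positive and 16 negative of 26 tested and a median of -0.13, or 0.0017 without WT replicate 6. edgeR called 0. By unadjusted p 1 was higher (6.23% of all genes) and 3 were lower (5.73%), and DESeq2 called 1 lower (0.757%). Nlrc5, reported as a brake on IKK and known as the activator of MHC class I genes, was the one called by DESeq2, at 169 and 156 CPM in KO replicates 9 and 12, against 261 and 334 CPM in WT replicates 1 and 6 (log2 -0.88, edgeR adjusted p 0.346). Nlrc3, of the same family, had a log2 fold change of -1.07 (SE 0.34), which was -0.64 without KO replicate 12 and -1.69 without KO replicate 9. The deubiquitinase gene Cyld had one of -0.69 (SE 0.25). With the length trend removed the log2 fold change was -0.48 for Nlrc5 and -0.27 for Cyld. Tnip2, an A20-binding inhibitor, was the one higher, at 19.0 and 22.6 CPM in KO cells, against 14.0 and 13.4 CPM in WT cells (log2 0.60, edgeR adjusted p 0.413). Ppp4c, a phosphatase subunit and the most abundant, overlapped between groups (log2 0.32).

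Among 17 cofactors and partners edgeR and DESeq2 called 0, with 1 higher (6.23% of all genes) and 2 lower (5.73%) at an unadjusted edgeR p. The acetyltransferase genes Crebbp (log2 -0.63, SE 0.23) and Kat2b (-0.59, SE 0.23) were the lower ones. The arginine methyltransferase gene Prmt5 was the higher one, at 225 and 246 CPM in KO replicates 9 and 12, against 181 and 129 CPM in WT replicates 1 and 6 (log2 0.60). The corepressor gene Ncor1 stood at -0.59, and Rps3, a ribosomal protein gene whose product also binds p65, was the most abundant (log2 0.38, edgeR adjusted p 0.451). The list's median of -0.23 was -0.093 without KO replicate 12 and 0.032 with the length trend removed, where Crebbp was at -0.19 and Ncor1 at -0.18.

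Known NF-κB target genes other than the 10 differed in both directions. Of 33 tested (Il2 was under the count filter), 22 had a log2 fold change above 0 and 11 one below 0, around a median of 0.07. edgeR called 0, while 4 were higher (6.23% of all genes) and 2 lower (5.73%) by unadjusted p, and DESeq2 called 2 higher (0.694% of all genes) and 1 lower (0.757%). With no count filter edgeR called Ier3 and Ltb (0.465% of all genes were called), and without WT replicate 1 it called Ier3 and Ccr7 (1.44%). Ltb, which encodes lymphotoxin beta, the ligand of a receptor that feeds the noncanonical arm, stood at 70.1 and 75.8 CPM in KO replicates 9 and 12, against 154 and 174 CPM in WT replicates 1 and 6 (log2 -1.17, SE 0.21, edgeR adjusted p 0.261). The early response gene Ier3 stood at 27.8 and 31.3 CPM in KO cells, against 15.5 and 8.65 CPM in WT cells (log2 1.29, SE 0.31). Tnfrsf9, which encodes the costimulatory receptor 4-1BB, stood at 509 and 565 CPM in KO cells, against 301 and 341 CPM in WT cells (log2 0.74). The chemokine gene Ccl3 stood at 14.5 and 40.7 CPM in KO cells, against 9.66 and 4.40 CPM in WT cells (log2 1.97, SE 0.55), and its log2 fold change was 1.04 without KO replicate 12. DESeq2 called Ltb, Ier3 and Ccl3 of these. The most abundant target, Tnfrsf4 (OX40), overlapped between groups (log2 -0.06). The median of the target list was -0.12 without KO replicate 12 and 0.29 without KO replicate 9.

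**Figure D4:**
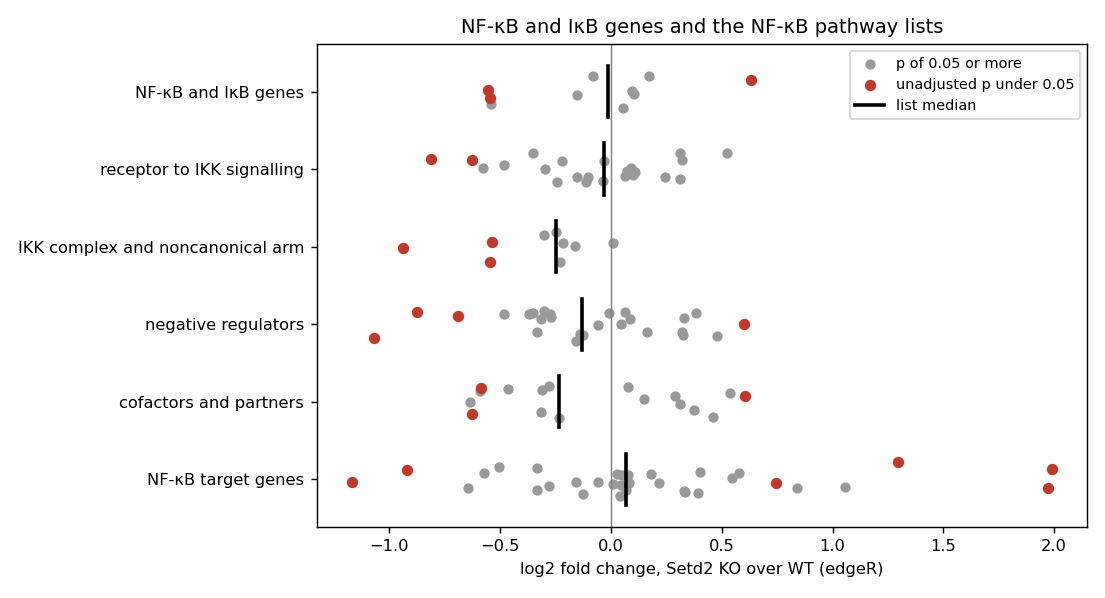
Log2 fold change, KO over WT, of each tested gene of the NF-κB and IκB set and of the 5 pathway lists (vertical jitter has no meaning), with the list median as a bar and genes at an unadjusted edgeR p under 0.05 in red. The IKK and noncanonical list has 8 of 9 genes below 0, while the target genes spread from -1.17 to 1.99. Over all 12816 genes tested, 6388 are above 0.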

How the data were processed

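RNA was prepared with TRIzol for Illumina HiSeq sequencing, per the labels' protocols. Per the submitters' processing notes, Bowtie2, RSEM, GRCm38.p6 and mm10 were used; versions and settings: not given in the sources used here. Per gene and library, the authors deposited an expected count, not normalized, and a length-scaled value. That deposited value, whose unit the header does not name, was taken as FPKM made by the authors because count over value gave about the same gene lengths in every library (median ratios 0.999 to 1.002; lengths within 1.1 times of each other for 89.6% of the 7415 genes over 5 FPKM throughout). The 4 columns of group averages were left out. RefSeq GRCm38.p6, which matched 18424 gene IDs, gave coordinates and promoters.

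Counts were rounded, filtered with filterByExpr (minimum count 10, which kept 12816 genes and all 10 NF-κB and IκB genes) and TMM-scaled. KO was set against WT with edgeR 4.0.16's robust quasi-likelihood F test (R 4.3.3, two-sided, Benjamini-Hochberg over all genes, threshold 0.05). SEs come from the F statistic. The code was checked on simulated data. Alternatives were DESeq2 1.42.0, limma 3.58.1 (voom, log2(FPKM + 1), log2(FPKM + 0.1)), other scalings and filters, a length trend (lowess, span 0.3) removed, and each library left out. The 10 genes, 5 pathway lists and 8 marker lists were chosen with earlier results of these data known. Pathway genes are named where called, among the 4 of smallest p of their list, or most abundant by FPKM. Agpat4, Setd2, Psd, Ccer2, Sirt2, Ccr7, Chuk, Ikbkb, Ikbkg and the other markers fall outside that rule. One gene that the rule names is not reported here. CD8 T cell markers (led by Cd8b1) summed to 432 and 323 CPM in KO replicates 9 and 12, against 260.0 and 330 CPM in WT replicates 1 and 6. Myeloid markers summed to 56.4 to 86.7 CPM, of which Cebpb alone made up 42.3 to 63.6 CPM. Dendritic, NK, mast and erythroid markers (led by Zbtb46, Klre1, Kit and Hbb-bs) summed to at most 20.3 CPM each.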

Additional observations from a re-analysis of the deposited data

How the results depend on the processing

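None of the 10 genes was called under any of the 15 alternative settings (smallest adjusted p 0.19), and of their 150 log2 fold changes 138 kept the direction and 12 reversed. Relb, Rel, Nfkbiz, Nfkbib and Nfkb1 reversed under none. Nfkbid reversed with library size alone (-0.026), the length trend removed (-0.079) and limma on log2(FPKM + 1), with or without the filter (-0.060 in each), or on log2(FPKM + 0.1) (-0.062), and ran from -0.41 to 0.39 with a library left out. Nfkbia reversed with the length trend removed (-0.11). With a library left out, Nfkbia ran from -0.14 to 0.30, Nfkb2 from -0.037 to 0.34, Rela from -0.23 to 0.10, Nfkbie from -0.35 to 0.10, Birc3 from -0.13 to 0.17 and Tnfrsf4 from -0.47 to 0.25, and the KO minus WT share of Rela from -2.14 to 0.84 percentage points. Birc3 was also reversed with upper-quartile factors (-0.0055), library size alone (-0.063) and limma on log2(FPKM + 1), filtered or not (-0.060 in each), or on log2(FPKM + 0.1) (-0.061). The cause of these reversals was not tested. Over all genes, 1 was called, against 81 with no filter, 186 in DESeq2, 0 in limma on unfiltered log2(FPKM + 1), and 0 to 194 with a library left out. Scaling by library size alone moved the median of all genes to -0.081 and that of the 10 genes to -0.094. With 2 libraries a group, 95% intervals of the 10 genes reached 0.46 to 0.80 on the log2 scale to each side. Intervals of 3 of the 10 excluded 0, yet their adjusted edgeR p was 0.413 or more. Differences of that size could thus go uncalled, and so could larger ones, as with Ltb (log2 -1.17, edgeR adjusted p 0.261). No paired analysis was possible because no replicate number (9 and 12 in KO, 1 and 6 in WT) occurs in both groups.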
